A study of Mus musculus with 39 samples.

Results

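Ptprc encodes CD45, the receptor-type protein tyrosine phosphatase of leukocytes and microglia. It is 1 of 50559 genes counted in each of the count tables of the basolateral amygdala (BLA) and the hippocampus, and it was chosen by its own genotype differences: its level was lower in APP/Tau than in control BLA and higher in APP/Tau than in control hippocampus. Those differences are therefore given as a description with no test. Tests are given for training, which played no part in the choice, and for other genes.

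The 39 libraries came from female mice aged 9 months, 1 mouse per library. A mouse may have given both a BLA and a hippocampal library, so there may be fewer than 39 mice. APP/Tau mice carried the APPSw,Ind transgene of the J9 line, a mutant human APP, together with P301S mutant human tau of the PS19 line, on a C57BL/6 background. Control mice, WT in the labels, carried neither transgene. Mice of both genotypes also carried CaMKIIα-Cre, which is active in glutamatergic neurons of the postnatal forebrain, and RiboTag, a tagged ribosomal protein that Cre switches on. Only the input, RNA of the whole lysate before any pull-down, was sequenced, so every cell type in the tissue contributed. Trained mice heard a tone that ended with a foot shock (cued fear conditioning) and were killed 1 h later, whereas naive mice had no conditioning. In the BLA there were 9 APP/Tau libraries (5 naive, 4 trained) and 10 control libraries (5 of each). In the hippocampus there were 9 APP/Tau libraries (5 naive, 4 trained) and 11 control libraries (5 naive, 6 trained). A BLA library held 4 micropunches of a mouse with a diameter of 1 mm and was made from 10 ng of RNA, whereas a hippocampal library held both dissected hippocampi and was made from 50 ng. Region and RNA input therefore cannot be told apart.

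CD45 removes the inhibitory phosphate from Src family kinases such as Lck and Lyn. By doing so it sets how readily receptors that signal through ITAM motifs respond in T cells, B cells and myeloid cells. In the healthy brain the main cells that carry it are microglia, which hold less of it than leukocytes from the blood. Itgam (CD11b), Cx3cr1 (the fractalkine receptor) and Csf1r (the receptor for colony stimulating factor) mark the same microglia and served as the genes for comparison.

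The start regions of Ptprc and of Itgam are shown because both genes are read as marks of the same cells. Each stretch covers 250 bases before and 50 after an annotated transcription start and is credited to RefSeq, build GRCm38.p6, whereas the counts were made on mm39. Capitals mark the letters GAGGAA, the core bound by the myeloid factor PU.1, or TTCCTC where it lies on the other strand.
Ptprc, chr1:138175256-138175555, minus strand: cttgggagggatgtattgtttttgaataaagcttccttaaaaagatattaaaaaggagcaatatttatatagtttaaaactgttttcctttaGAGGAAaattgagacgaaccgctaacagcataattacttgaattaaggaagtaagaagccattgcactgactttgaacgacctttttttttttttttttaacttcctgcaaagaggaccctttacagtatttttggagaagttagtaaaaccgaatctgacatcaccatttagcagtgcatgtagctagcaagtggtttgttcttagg
Itgam, chr7:128062390-128062689, plus strand: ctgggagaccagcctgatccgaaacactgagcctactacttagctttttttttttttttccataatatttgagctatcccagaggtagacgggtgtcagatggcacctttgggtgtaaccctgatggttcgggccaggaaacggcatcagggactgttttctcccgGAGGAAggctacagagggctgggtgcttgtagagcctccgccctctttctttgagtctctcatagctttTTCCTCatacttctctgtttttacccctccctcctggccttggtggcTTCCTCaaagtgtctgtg
The Ptprc stretch held 1 match, 158 bases before the start. A second annotated Ptprc start, in an overlapping window, had 0 matches. The Itgam stretch held 3 matches, 1 as GAGGAA and 2 as TTCCTC, and the Cx3cr1 window held 0. Of 32851 windows of this length in the table, 28.3% held at least 1 match on either strand. A match is only a match of letters.

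Total counts ran from 50.3 M to 74.3 M per BLA library and from 92.1 M to 128.3 M per hippocampal library. Ptprc itself had 312 to 2391 counts in BLA libraries and 159 to 2673 counts in hippocampal ones, so its level did not rest on a few reads in any library. Levels below are CPM, counts relative to the library total, scaled by TMM factors over all 39 libraries. In the hippocampus, 2 control libraries stood apart in ribosomal RNA: Rn18s-rs5 was at 56860 CPM in naive control 1 and at 20370 CPM in trained control 1, against a median of 901 CPM. In the BLA, 3 libraries stood apart in neurons of neighbouring nuclei. The summed level of 16 markers of striatum and central amygdala was 3844 to 5639 CPM in trained control 2, naive APP/Tau 2 and trained APP/Tau 4, and 559 to 2629 CPM in the other 16 BLA libraries.

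In the BLA, Ptprc was lower in APP/Tau than in control mice. The 5 naive controls had 35.7, 33.4, 15.2, 20.8 and 26.8 CPM. The 5 trained controls had 23.3, 5.82, 34.1, 28.6 and 25.1 CPM. All but 1 control thus lay at 15.2 CPM or above, and the exception was trained control 2, 1 of the 3 libraries rich in striatal markers. The 5 naive APP/Tau mice had 9.61, 5.29, 9.59, 16.3 and 14.9 CPM. The 4 trained APP/Tau mice had 14.3, 21.3, 9.43 and 5.16 CPM. The ranges of the genotypes overlapped, yet 0 of 9 APP/Tau libraries reached the control median of 25.9 CPM, and 2 of 9 lay below every control. Means were 11.8 ± 5.35 CPM in APP/Tau (SD, n = 9) and 24.9 ± 9.24 CPM in controls (SD, n = 10). The fitted difference, averaged over naive and trained mice, was −1.06 ± 0.30 (log2, SE), that is 2.09-fold lower. It was −1.23 ± 0.41 in naive and −0.89 ± 0.43 in trained mice. Of the 23168 genes tested in the BLA for the averaged difference, 0.181% were called lower and 0.997% higher. In naive mice alone 0.0388% and in trained mice alone 0.0432% were called.

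In the hippocampus the order was the opposite. The 5 naive controls had 3.578, 3.603, 3.162, 2.805 and 3.022 CPM. The 6 trained controls ran from 1.77 to 2.77 CPM with a median of 2.46 CPM. Control values thus lay close together, with the lowest in trained control 1, a library rich in Rn18s-rs5. The 5 naive APP/Tau mice had 7.28, 7.16, 4.95, 3.48 and 18.6 CPM. The 4 trained APP/Tau mice had 21.8, 3.73, 17.3 and 11.04 CPM. Ptprc was above every control in 8 of 9 APP/Tau libraries, and the ninth, naive APP/Tau 4, lay inside the control range. Means were 10.6 ± 6.96 CPM in APP/Tau (SD, n = 9) and 2.77 ± 0.564 CPM in controls (SD, n = 11). The averaged difference was 1.92 ± 0.27 (log2, SE), or 3.79-fold higher, with 1.36 ± 0.38 in naive and 2.49 ± 0.39 in trained mice. Without naive APP/Tau 5 the difference in naive mice was 0.83. Without the 2 libraries rich in Rn18s-rs5 the averaged difference was 1.91 ± 0.31. Of the 25791 genes tested in the hippocampus, 7.27% were called higher and 3.8% lower for the averaged difference, 0.202% were called in naive mice and 2.8% in trained mice. Because these are bulk libraries, fewer cells of a type and less RNA per cell cannot be told apart.

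**Figure D1:**
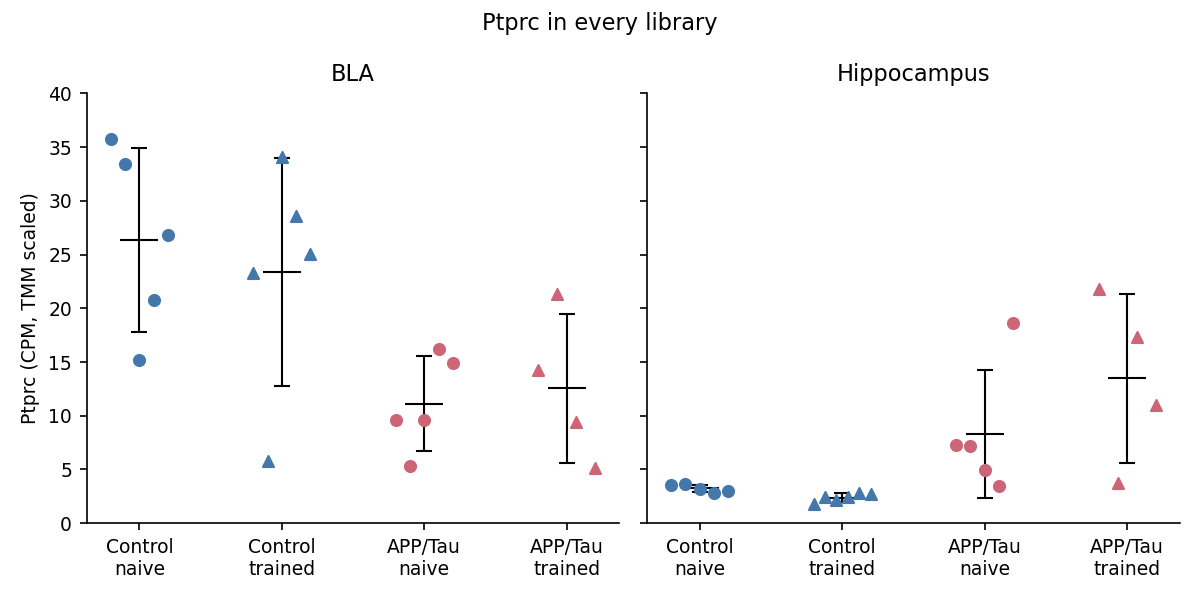
Ptprc level (CPM, TMM scaled over all libraries) in each library, by tissue, genotype and training; circles are naive and triangles trained mice, and black marks give the mean and SD of each group. APP/Tau libraries lie mostly below the controls in the BLA (11.8 against 24.9 CPM) and above them in the hippocampus (10.6 against 2.77 CPM).

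Set side by side, the 4 combinations of region and genotype ran, from high to low, from control BLA over APP/Tau BLA and APP/Tau hippocampus to control hippocampus. The middle pair did not differ beyond its spread, at 11.8 ± 5.35 and 10.6 ± 6.96 CPM (SD, n = 9 each), a ratio of 1.11. In controls the BLA mean was 8.97 times the hippocampal mean, and the BLA library was the higher in 10 of 10 library numbers found in both regions. In APP/Tau mice it was the higher in 4 of 9. The comparison genes showed no such gap between regions in controls: the BLA mean over the hippocampal mean was 0.945 for Itgam, 1.12 for Cx3cr1 and 1.09 for Csf1r. The genotype difference of Ptprc in the hippocampus minus that in the BLA was 2.998 ± 0.426 (log2, SE, fit over all 39 libraries). This fit took all libraries as independent, although libraries of the same number may share a mouse.

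Training left no called change in Ptprc. In the BLA the trained minus naive difference was −0.17 ± 0.40 (log2, SE; adjusted p = 0.9999, edgeR quasi-likelihood test) in controls and 0.17 ± 0.43 (adjusted p = 0.985) in APP/Tau mice. The 95% intervals ran from −0.96 to 0.61 and from −0.67 to 1.01. In the hippocampus it was −0.44 ± 0.37 (adjusted p = 0.9999) in controls, with an interval from −1.16 to 0.28. All 6 trained control hippocampi were below all 5 naive ones, but narrowly, with 2.77 CPM at the highest against 2.81 CPM at the lowest. The share of all genes that separate these groups as fully is not reported here, so no training effect is read from this order. Trained control 1, the lowest of these libraries, and naive control 1 were those rich in Rn18s-rs5. In APP/Tau hippocampus the difference was 0.69 ± 0.39 (adjusted p = 0.986), with an interval from −0.08 to 1.46. The interaction of genotype and training was 0.34 ± 0.58 (adjusted p = 0.96) in the BLA. The edgeR test of the interaction in the hippocampus gave 1.13 ± 0.54 (unadjusted p = 0.0494, adjusted p = 0.984). edgeR called 0 genes, 0% of those tested, for training in controls, for training in APP/Tau mice and for the interaction in either region. At an unadjusted p under 0.05 there were 484, 1356 and 894 genes in the BLA and 624, 1184 and 1005 in the hippocampus. DESeq2 called 2, 14 and 0 genes in the BLA and 0, 2 and 3 in the hippocampus, and limma-voom called 0 in all 6 of these comparisons.

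The comparison genes were higher in APP/Tau mice in both regions, so that in the BLA they moved against Ptprc. In control BLA, Itgam ran from 11.6 to 21.9 CPM with a median of 17.5 CPM, and in APP/Tau BLA from 18.3 to 27.0 CPM with a median of 22.0 CPM. The groups overlapped, and 9 of 9 APP/Tau libraries were above the control median. The difference of 0.36 ± 0.10 (log2, SE) missed the threshold (adjusted p = 0.0665, edgeR). Cx3cr1 ran from 47.6 to 62.7 CPM around 54.1 CPM in control BLA and from 55.4 to 112.7 CPM around 68.9 CPM in APP/Tau BLA. It rose by 0.46 ± 0.11 (adjusted p = 0.044), a call that was lost in 14 of 19 fits that each left out 1 library. Csf1r ran from 62.6 to 88.4 CPM around 78.5 CPM in control BLA and from 81.9 to 139.6 CPM around 104.8 CPM in APP/Tau BLA. It rose by 0.51 ± 0.09 (adjusted p = 0.0159), and 7 of 9 APP/Tau libraries were above every control. With the striatal marker score as a covariate both calls were lost, at 0.42 for Csf1r (adjusted p = 0.108, edgeR) and 0.38 for Cx3cr1 (adjusted p = 0.214).

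In the hippocampus all 3 comparison genes rose. Itgam ran from 15.3 to 21.3 CPM around 18.5 CPM in controls and from 19.6 to 65.4 CPM around 29.0 CPM in APP/Tau mice, a rise of 0.93 ± 0.17 (adjusted p = 0.00266, edgeR). Cx3cr1 rose by 0.89 ± 0.16 (adjusted p = 0.0023) and Csf1r by 0.88 ± 0.15 (adjusted p = 0.0011). For each of the 3 genes, 8 of 9 APP/Tau hippocampi were above every control. The differences in genotype effect between hippocampus and BLA were 0.59 ± 0.21 for Itgam, 0.45 ± 0.21 for Cx3cr1 and 0.39 ± 0.18 for Csf1r. None of these 3 passed the edgeR test, which took all libraries as independent (adjusted p = 0.407, 0.571 and 0.575). Over all 26725 genes tested for that difference, 0.0262% were called by edgeR. Where Ptprc changed sign between the regions, the comparison genes kept theirs.

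**Figure D2:**
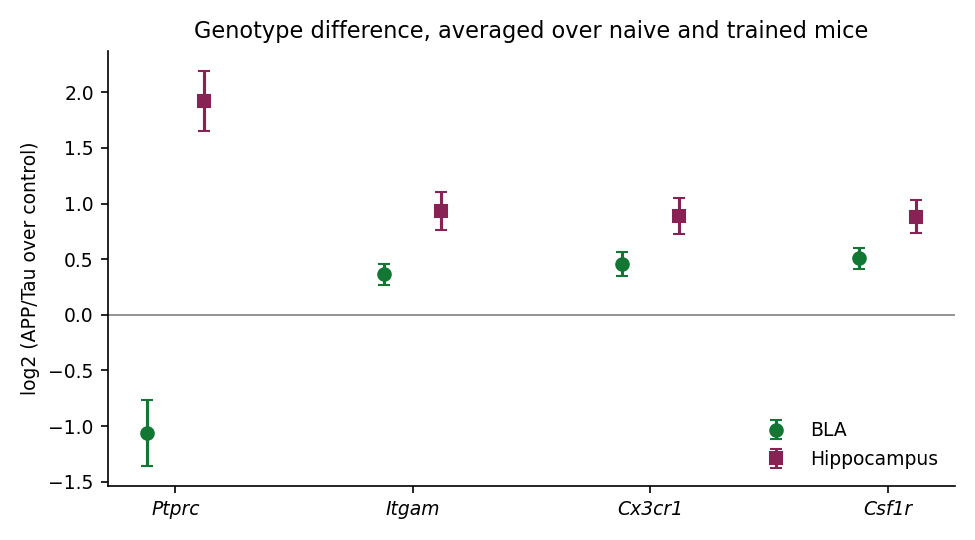
Log2 ratio of APP/Tau over control for Ptprc and the 3 comparison genes, averaged over naive and trained mice, in the BLA (circles) and the hippocampus (squares); bars are 1 standard error of the fit. Ptprc is below 0 in the BLA (−1.06) and above 0 in the hippocampus (1.92), while Itgam, Cx3cr1 and Csf1r are above 0 in both.

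The level of Ptprc relative to the 3 genes was then taken in each library, as log2 CPM of Ptprc minus the mean log2 CPM of the 3. In the BLA this relative level was −2.39 ± 0.78 in APP/Tau (SD, n = 9) and −0.90 ± 0.89 in controls (SD, n = 10), and 9 of 9 APP/Tau libraries lay below the control median of −0.74. The genotype difference in relative level, −1.49, was thus more negative than that of Ptprc alone. In the hippocampus the relative level was −3.03 ± 0.55 in APP/Tau (SD, n = 9) and −3.87 ± 0.29 in controls (SD, n = 11), and 6 of 9 APP/Tau libraries lay above every control. The difference there was 0.86. Against each of the 3 genes alone, or against all microglia identity genes, the difference ran from −1.58 to −1.43 in the BLA and from 0.79 to 0.88 in the hippocampus. The level of Ptprc relative to these genes thus differed between genotypes in both regions. In the hippocampus such a rise was not particular to Ptprc, whose own difference was 1.92. Differences there reached 2.17 among the microglia identity genes (median 0.89) and 2.74 among genes expressed across leukocytes (median 1.16). Because Ptprc was chosen for its own genotype differences, this is a description with no test. The part of cell number was not tested.

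**Figure D3:**
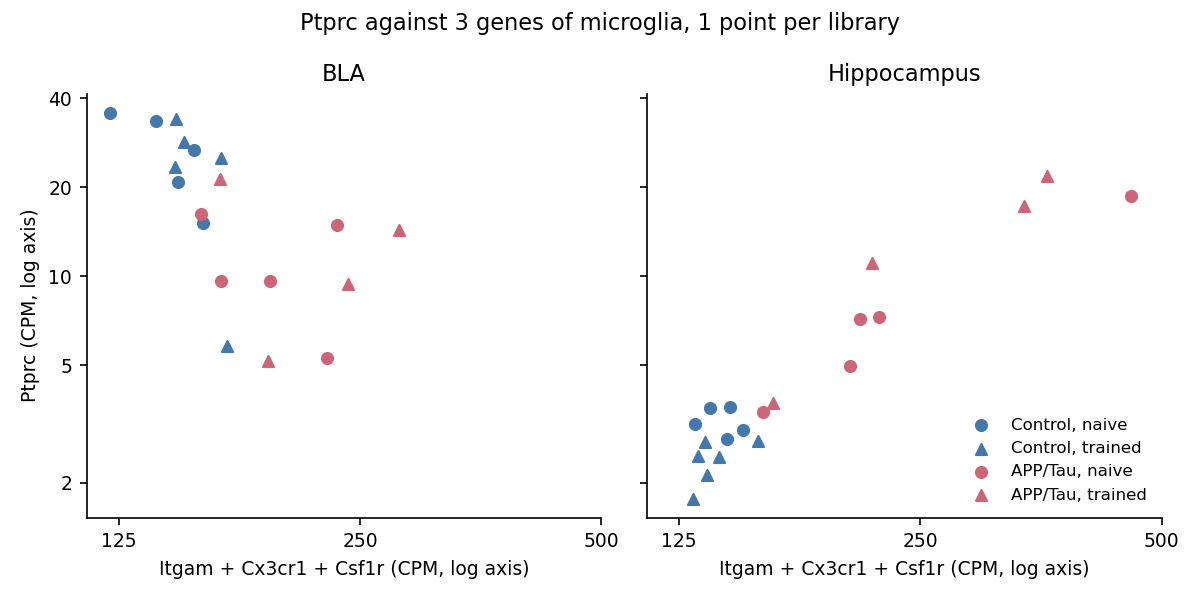
Ptprc against the summed level of Itgam, Cx3cr1 and Csf1r (CPM, both axes logarithmic), 1 point per library. In the hippocampus the points rise together from the controls (Ptprc up to 3.603 CPM) to the APP/Tau libraries, whereas in the BLA the 2 controls with the lowest sums have Ptprc at 35.7 and 33.4 CPM.

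Wider lists gave the same picture of genes for comparison that were higher in APP/Tau tissue. The counts of every list below, for the averaged difference, are to be read beside the share of all genes tested. That share was 0.997% higher and 0.181% lower in the BLA, and 7.27% higher and 3.8% lower in the hippocampus. Of 26 genes of microglia identity, all of which passed the filter in both regions, 12 rose and 0 fell in the BLA, and 21 rose and 0 fell in the hippocampus. Their median log2 difference was 0.46 in the BLA and 0.89 in the hippocampus, against 0.01 and −0.00 over all genes tested. Abundant members in the BLA included Csf1r, Cx3cr1 and Ctss, the protease cathepsin S (0.94 ± 0.20, adjusted p = 0.0265). In the hippocampus Ctss rose by 1.71 ± 0.25 (adjusted p = 0.000484) and C1qa, a subunit of complement C1q, by 1.93 ± 0.31 (adjusted p = 0.000984). Summed, the list lay at 592 to 763 CPM in control BLA, 675 to 1606 CPM in APP/Tau BLA, 597 to 720 CPM in control hippocampus and 750 to 2571 CPM in APP/Tau hippocampus. The hippocampal ranges did not overlap.

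Of 32 genes expressed across leukocytes, 31 were found in the tables and passed the filter in both regions. In the BLA 12 rose and 0 fell, and in the hippocampus 29 rose and 0 fell, with medians of 0.63 and 1.16 (log2). Laptm5, a lysosomal membrane protein of leukocytes, rose by 0.67 ± 0.16 in the BLA (adjusted p = 0.0412) and by 1.13 ± 0.19 in the hippocampus (adjusted p = 0.0011). Plek, the protein kinase C substrate pleckstrin, rose by 0.78 ± 0.17 (adjusted p = 0.0327) and 1.43 ± 0.21 (adjusted p = 0.000484). Coro1a, an actin regulator that neurons also express, did not pass, at −0.18 ± 0.12 (adjusted p = 0.432) and −0.01 ± 0.04 (adjusted p = 0.864). Nor did Evi2a, at 0.53 ± 0.17 (adjusted p = 0.106) and 0.38 ± 0.14 (adjusted p = 0.0746). Over the microglia and leukocyte lists together, the BLA count of 24 among 57 moved to between 4, without trained APP/Tau 1, and 42, without trained APP/Tau 2, when 1 library was left out. It was 0 with the striatal marker score as a covariate and 26 without the 3 libraries rich in striatal markers. The share of all genes called without those 3 libraries is not reported here. The hippocampal count of 50 among 57 stayed between 47 and 51. In naive mice alone these lists had 0 genes called in the BLA and 1 in the hippocampus. Of all genes tested in naive mice, 0.0388% and 0.202% were called. In trained mice alone the lists had 1 called in the BLA and 40 in the hippocampus, beside 0.0432% and 2.8% of all genes tested.

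Markers of other leukocytes, which also carry CD45, were followed as well. In T cell markers 11 of 20 passed the filter in the BLA with 0 called in either direction, and 19 of 20 in the hippocampus with 1 higher, Trbc1, and 0 lower. Of all genes tested in the hippocampus 7.27% were called higher, so 1 of 19 is near that share. The summed T cell level was 12.2 to 18.6 CPM in APP/Tau BLA and 14.3 to 19.3 CPM in control BLA, and 14.7 to 19.9 CPM in APP/Tau and 14.2 to 18.9 CPM in control hippocampus. Most of it came from Cd247, Cd6, Lck and Zap70 in the BLA and from Cd247, Zap70, Lck and Trbc2 in the hippocampus. The defining chains of the T cell receptor complex were near 0: Cd3e had a mean of 0.0299 CPM in the BLA and 0.0855 CPM in the hippocampus, Cd3d 0.0282 and 0.047 CPM, and Cd3g 0.0278 and 0.0703 CPM. Of 8 NK cell markers, 0 passed the filter in the BLA and 5 in the hippocampus, where 1, Klrb1c, was called higher and 0 lower.

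Of 12 B cell markers, 5 passed in the BLA and 8 in the hippocampus, and the only call in either region was Cd22, a sialic acid receptor of B cells that microglia can also express. Cd22 rose by 3.58 ± 0.78 in the BLA (adjusted p = 0.032) and by 4.22 ± 0.58 in the hippocampus (adjusted p = 0.000311). The summed B cell level was 4.63 to 12.9 CPM in APP/Tau and 2.81 to 7.53 CPM in control BLA, and 13.3 to 53.5 CPM in APP/Tau and 10.5 to 76.95 CPM in control hippocampus. Most of it in the hippocampus was Ighm, the heavy chain of IgM, at 21.3 ± 10.1 CPM in APP/Tau (SD, n = 9) and 21.8 ± 12.7 CPM in controls (SD, n = 11). The marker Ms4a1 had a mean of 0.0164 CPM in the BLA and 0.0316 CPM in the hippocampus. Of 15 monocyte and neutrophil markers, 5 and 10 passed. Csf3r, the receptor for granulocyte colony stimulating factor, which microglia also express, rose in both regions (1.05 ± 0.23, adjusted p = 0.0351, and 1.55 ± 0.25, adjusted p = 0.000992), and S100a9 rose in the hippocampus, where its mean level was 0.163 CPM. The list summed to 15.3 to 31.1 CPM in APP/Tau and 14.7 to 19.5 CPM in control BLA, and to 23.2 to 55.8 CPM and 23.3 to 27.2 CPM in the hippocampus.

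Of 11 macrophage markers of brain borders, 9 passed and 1 rose in the BLA (Stab1, 0.38 ± 0.08, adjusted p = 0.0221). In the hippocampus 11 passed and 7 rose, among them Stab1 (0.42 ± 0.12, adjusted p = 0.0281) and the mannose receptor Mrc1 (0.80 ± 0.20, adjusted p = 0.0151). Of 8 dendritic cell markers 6 passed in each region. None was called in the BLA, while in the hippocampus Cd209a rose (1.30 ± 0.31, adjusted p = 0.0119) and Flt3 fell by 0.44 ± 0.11 (adjusted p = 0.0179). Mast cell markers had 0 calls of 1 and 5 that passed; nearly all of their level was Kit, at 40.4 CPM in the BLA and 86.0 CPM in the hippocampus, against at most 0.201 CPM (Mcpt4) for any other member. Blood markers had 0 calls of 7 and 8. Summed blood markers overlapped between genotypes, at 22.4 to 132.7 CPM in APP/Tau and 20.9 to 64.8 CPM in control BLA, and at 42.6 to 85.6 CPM and 31.9 to 92.0 CPM in the hippocampus. The part of these other cells in the Ptprc difference was not tested.

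The genes CD45 acts on were followed next. Of 11 Src family kinases and their regulators, 10 passed in each region. In the BLA 0 were called. Fyn was at −0.03 ± 0.05 (adjusted p = 0.779), Src at −0.08 ± 0.06 (adjusted p = 0.463), Csk, the kinase that adds the phosphate CD45 removes, at 0.10 ± 0.06 (adjusted p = 0.43), and Pag1, which anchors Csk at the membrane, at 0.10 ± 0.09 (adjusted p = 0.58). In the hippocampus 3 rose and 0 fell, among them the myeloid kinases Lyn (0.97 ± 0.18, adjusted p = 0.00273) and Fgr (3.51 ± 0.57, adjusted p = 0.000984). Of 17 ITAM adaptors and downstream kinases, 14 passed and 2 rose in the BLA, and 17 passed and 9 rose in the hippocampus, with 0 falling in either. Tyrobp, the ITAM adaptor DAP12 of microglia, rose by 1.45 ± 0.25 (adjusted p = 0.0126) in the BLA and by 2.14 ± 0.26 (adjusted p = 9.88e-05) in the hippocampus. Fcer1g, an ITAM chain of Fc receptors, rose by 0.86 ± 0.18 (adjusted p = 0.0265) and 1.52 ± 0.25 (adjusted p = 0.00106).

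Among the 4 JAK kinases, which CD45 also dephosphorylates, 0 were called in the BLA and 1 rose in the hippocampus, Jak3 (0.60 ± 0.10, adjusted p = 0.00123). Of 8 CD45 partners and lectin ligands, 7 passed and 1, Cd22, rose in the BLA. In the hippocampus 8 passed and 5 rose, including the galectins Lgals1 (0.90 ± 0.17, adjusted p = 0.00273) and Lgals9 (0.74 ± 0.16, adjusted p = 0.006). Of 8 regulators of CD45 splicing, all passed. None was called in the BLA, and 1 rose in the hippocampus, Ptbp1, a repressor of exon inclusion (0.35 ± 0.10, adjusted p = 0.0244). The most abundant of these regulators, Hnrnpk and Sfpq, did not pass in the BLA (adjusted p = 0.582 and 0.322) or in the hippocampus (adjusted p = 0.567 and 0.0549). The counts are per gene, so CD45 isoforms were not resolved. Of 10 transcription factors of myeloid cells, 1 rose in the BLA, Irf8 (0.96 ± 0.21, adjusted p = 0.034), and 8 rose in the hippocampus, with 0 falling in either. Spi1, which encodes PU.1, rose in the hippocampus from 2.78 to 6.69 CPM on average (1.27 ± 0.20, adjusted p = 0.000646) and was at 0.63 ± 0.16 in the BLA (adjusted p = 0.0531).

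The other receptor-type tyrosine phosphatases came next. All 20 of the list passed the filter in both regions. In the BLA 0 were called, with a median of −0.12 (log2), and the most abundant, Ptprn, a protein of dense-core vesicles, was at −0.12 ± 0.08 (adjusted p = 0.411). In the hippocampus 1 rose, Ptprm (0.29 ± 0.06, adjusted p = 0.00558), and 2 fell, Ptprk by 0.33 ± 0.07 (adjusted p = 0.0063) and Ptpre by 0.19 ± 0.06 (adjusted p = 0.0392). Of all genes tested there, 7.27% were called higher and 3.8% lower, so these counts were near the shares over all genes. Ptprq, Ptprf and Ptprz1, picked after their values were seen, had the signs of Ptprc in both regions without passing in either. Ptprq was at −0.62 ± 0.38 in the BLA (adjusted p = 0.391) and 0.39 ± 0.23 in the hippocampus (adjusted p = 0.285), Ptprf at −0.17 ± 0.06 (adjusted p = 0.168) and 0.04 ± 0.09 (adjusted p = 0.803), and Ptprz1 at −0.05 ± 0.07 (adjusted p = 0.708) and 0.09 ± 0.04 (adjusted p = 0.166). Of 17 non-receptor phosphatases, 2 rose and 0 fell in each region, where 0.997% (BLA) and 7.27% (hippocampus) of all genes tested were called higher. Ptpn6, the phosphatase SHP-1 of blood cells, rose by 1.12 ± 0.22 in the BLA (adjusted p = 0.0198) and by 1.70 ± 0.27 in the hippocampus (adjusted p = 0.000872). Ptpn18 rose by 0.84 ± 0.20 (adjusted p = 0.0438) and 1.12 ± 0.25 (adjusted p = 0.00777).

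Which genes followed Ptprc from library to library was described by Pearson's r of the deviations from the group means. This removes genotype differences in mean but not in spread. Hippocampal Ptprc had an SD of 6.96 CPM in APP/Tau and 0.564 CPM in controls, so APP/Tau libraries weigh most there. The genes of a region share libraries and depth, so the r values carry no test. In the hippocampus (20 libraries, 16612 genes) the 8 highest, leaving out predicted genes without a name, were genes that microglia or macrophages express. They were Itgb2, the partner chain of Itgam (r = 0.97), Cd68, a lysosomal protein (0.97), Ly86 (0.97), the complement receptor C3ar1 (0.97), Ctss (0.97), progranulin Grn (0.96), the lysosomal transporter Slc15a3 (0.96) and C1qc (0.96). Itgam had r = 0.85, Cx3cr1 0.93 and Csf1r 0.93, while Spearman's rho was 0.55, 0.81 and 0.71. All 26 microglia identity genes were above 0 (median 0.85), as were 30 of 31 pan-leukocyte genes (median 0.89), 10 of 10 astrocyte genes (median 0.89) and 10 of 10 oligodendrocyte genes (median 0.70). The median over all genes was −0.02.

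In the BLA (19 libraries, 16439 genes) the 8 highest were other genes, predicted genes without a name again left out. They were the diacylglycerol kinase Dgka (r = 0.95), the cell cycle inhibitor Cdkn1c (0.95), Agap3 (0.93), Mcub, a subunit of the mitochondrial calcium uniporter (0.93), Psrc1 (0.93), Hapln4, a link protein of perineuronal nets (0.92), Lztr1 (0.92) and Rnf112 (0.92). Itgam had r = −0.35, Cx3cr1 −0.26 and Csf1r −0.36. Only 2 of 26 microglia identity genes (median −0.27) and 6 of 29 pan-leukocyte genes (median −0.23) were above 0. Genes with r of at least 0.7 numbered 853 in the BLA and 1629 in the hippocampus among 15834 genes measured in both, and 29 were shared, 3.4% of the former and 1.78% of the latter. Without the 3 libraries rich in striatal markers (16 left), the 8 genes kept r between 0.71 and 0.85, and Itgam, Cx3cr1 and Csf1r were at −0.40, −0.41 and −0.48.

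**Figure D4:**
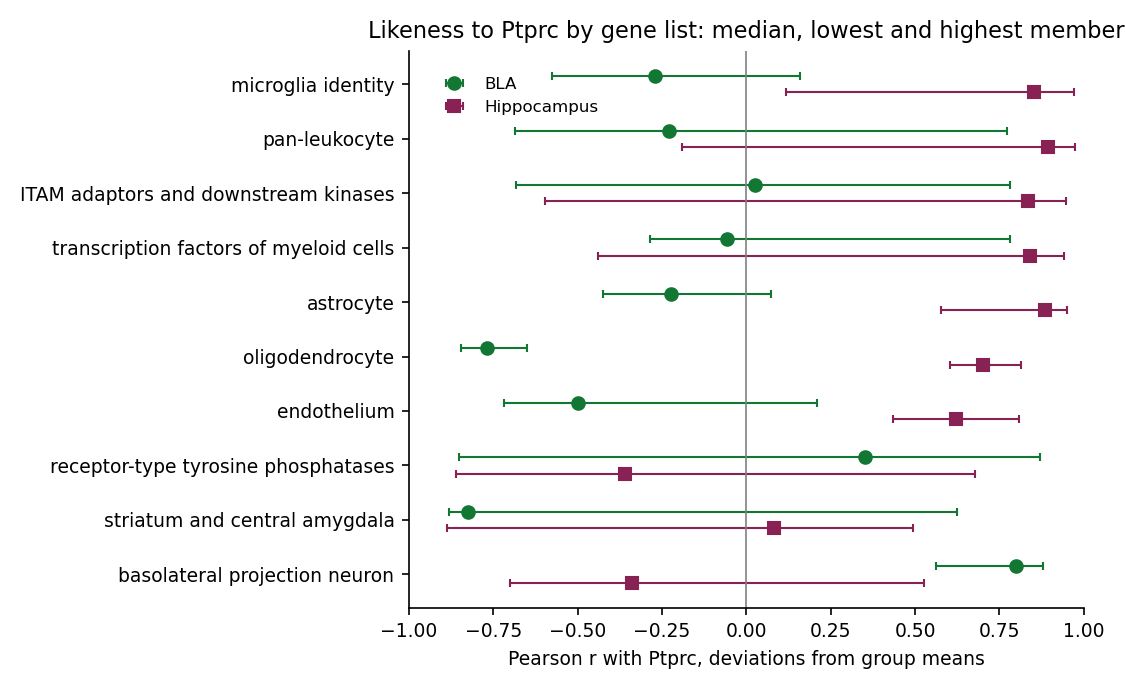
Pearson r with Ptprc across libraries, after removal of group means, for 10 gene lists; the symbol is the median over the list's genes and the bar runs from its lowest to its highest gene, in the BLA (circles, 19 libraries) and the hippocampus (squares, 20 libraries). Microglia and leukocyte lists lie near 0.85 to 0.89 in the hippocampus and near −0.27 to −0.23 in the BLA. Genes of projection neurons, a list drawn up after the data were seen, lie highest in the BLA (0.80). Without the 3 libraries rich in striatal markers their median was 0.49.

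Ptprc in the BLA varied with markers of neurons. Markers of striatum and central amygdala had a median r of −0.82 with Ptprc, and 1 of 16 was above 0. The 3 libraries richest in them were the 3 with the lowest Ptprc in the BLA, at 5.16, 5.29 and 5.82 CPM. A list of 10 genes of cortical-type projection neurons, drawn up after the data were seen, had a median r of 0.80, with 10 of 10 above 0. Its most abundant gene, the vesicular glutamate transporter Slc17a7, had r = 0.86. Without the 3 libraries these medians were −0.55 and 0.49. By genotype, summed striatal markers ran from 950 to 5639 CPM in APP/Tau and from 559 to 4923 CPM in control BLA, with 7 of 9 APP/Tau libraries above the control median. All 16 had positive log2 differences with 0 called (median 0.67), and the most abundant were Penk (0.66 ± 0.37, adjusted p = 0.342) and Ppp1r1b (0.70 ± 0.42, adjusted p = 0.387). All 10 projection neuron genes had negative differences with 0 called in the BLA (median −0.60), and 2 fell in the hippocampus, Etv1 by 0.37 ± 0.08 (adjusted p = 0.00963) and Grp by 0.42 ± 0.13 (adjusted p = 0.0361).

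With the striatal marker score as a covariate, the Ptprc genotype difference in the BLA was −0.58 ± 0.21 (log2, SE), and without the 3 libraries it was −0.96 ± 0.19. Both settings were chosen after the data were seen. Without the 3 libraries, Ptprc ran from 9.43 to 21.3 CPM in 7 APP/Tau and from 15.2 to 35.7 CPM in 9 control libraries. In the hippocampus, summed striatal markers ran only from 316 to 431 CPM, and 1 of 16 rose (Ppp1r1b, 0.27 ± 0.09, adjusted p = 0.0451) and 1 fell (Pde10a, by 0.27 ± 0.08, adjusted p = 0.0278). Those counts were near the shares of all genes tested there, 7.27% higher and 3.8% lower.

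**Figure D5:**
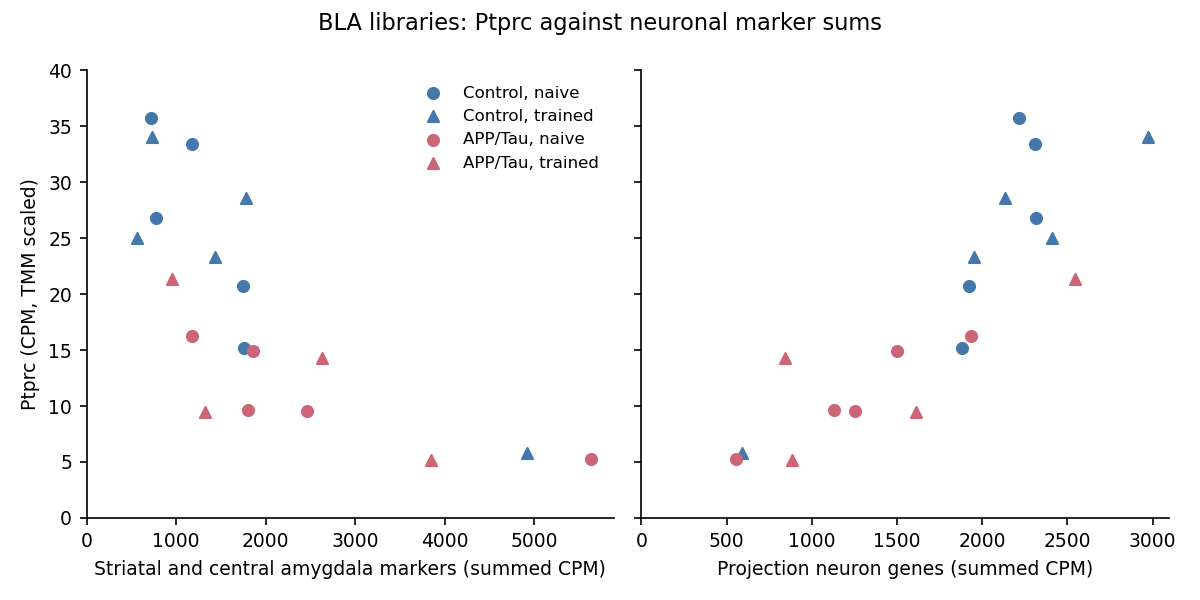
Ptprc level in the 19 BLA libraries against the summed level of 16 markers of striatum and central amygdala (left) and of 10 projection neuron genes (right), all in CPM; colours give genotype and shapes give training. The 3 libraries with striatal sums of 3844 to 5639 CPM have the lowest Ptprc (5.16 to 5.82 CPM).

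Within each genotype, 12 relations of Ptprc across libraries were computed after the pattern had been noticed in the same libraries, so they are given as a description with no test. With the striatal score (mean log2 CPM of the list), Pearson's r was −0.82 in control BLA (rho = −0.64). In APP/Tau BLA it was −0.84 (rho = −0.73). Leaving out the 2 libraries farthest from the median score gave −0.68 and −0.65. With the microglia identity score, r was −0.84 in control BLA (rho = −0.81), and −0.69 without the 2 farthest. In APP/Tau BLA it was −0.21 (rho = −0.40), and −0.48 without the 2 farthest. In APP/Tau hippocampus it was 0.95 (rho = 0.97), and 0.96 without the 2 farthest. In control hippocampus it was 0.34 (rho = 0.31), and 0.59 without the 2 farthest.

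The pan-leukocyte score gave r = 0.98 in APP/Tau hippocampus (rho = 0.97), and 0.97 without the 2 farthest. In control hippocampus it gave 0.62 (rho = 0.58), which fell to 0.20 without the 2 farthest and thus rested on those. In control BLA it gave −0.65 (rho = −0.81; −0.89 without the 2 farthest) and in APP/Tau BLA −0.12 (rho = −0.42; −0.43 without the 2 farthest). Between BLA and hippocampal libraries of the same number, Ptprc had r = 0.18 in controls (rho = 0.26; 0.57 without the 2 farthest). In APP/Tau mice r was −0.18 (rho = −0.28; −0.64 without the 2 farthest). The labels do not say that these numbers mark a mouse, but BLA and hippocampal libraries of the same number had the same genotype and training.

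Other cell types of the tissue moved as follows. Of 10 oligodendrocyte genes, 2 rose in the BLA and 6 in the hippocampus, among them Cnp, an enzyme of myelin (0.61 ± 0.14, adjusted p = 0.0412, and 0.45 ± 0.12, adjusted p = 0.0282). In the BLA their median r with Ptprc was −0.77. Of 10 astrocyte genes, 2 rose in the BLA and 8 in the hippocampus, with Gfap, the filament protein of reactive astrocytes, up by 3.12 ± 0.54 (adjusted p = 0.0128) and 2.48 ± 0.31 (adjusted p = 9.97e-05). Of 10 endothelial genes, 0 were called in the BLA and 4 rose in the hippocampus, among them Slco1a4 (0.19 ± 0.05, adjusted p = 0.0228). Of the choroid plexus and meningeal lists 0 were called in either region, with 7 of 10 and 8 of 9 members passing the filter in the BLA and 10 of 10 and 9 of 9 in the hippocampus. The part of these cells in the Ptprc values was not tested.

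Of the genes beside Ptprc on chromosome 1, none that was tested passed for genotype, and most were near the limit of detection. Nr5a2, the nearest named coding gene on the lower side that passed the filter, was at −0.47 ± 0.43 in the BLA (adjusted p = 0.601) and 0.82 ± 0.83 in the hippocampus (adjusted p = 0.553), at mean levels of 0.416 and 0.0467 CPM. On the upper side, Atp6v1g3 was at −0.89 ± 0.62 in the BLA (adjusted p = 0.464) from a mean level of 0.124 CPM. Nek7, a kinase of the inflammasome, was at 0.20 ± 0.07 in the hippocampus (adjusted p = 0.0637), from a mean level of 61.5 CPM and with r = 0.78 with Ptprc across libraries. In the BLA, Nek7 was at 0.10 ± 0.07 (adjusted p = 0.443, edgeR), opposite in sign to Ptprc there, with r = 0.17. Nr5a2 thus had the signs of Ptprc in both regions, with standard errors close to its differences. In GENCODE M21 (GRCm38), Ptprc is on the minus strand, 0 genes on the opposite strand overlap it, and 1 unclassified gene on its own strand does.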

How the data were processed

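Whole-number gene counts per library, 1 table for each tissue, were deposited by the authors without normalization. Reads were trimmed with Trimmomatic 0.39 and the genome build was mm39, per the submitters' processing notes. For alignment and counting, which aligner, counter, annotation and strand option were used is not given in the sources used here. Ptprc and the gene lists were chosen with earlier results of these data known.

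All libraries of a tissue entered 1 fit with 4 group means in edgeR 4.0.16 (R 4.3.3): filterByExpr (minimum count 10, minimum total 15), TMM factors, the quasi-likelihood F test (2-sided), Benjamini-Hochberg adjustment over all genes and a threshold of adjusted p under 0.05. The SE of a log2 difference was its size divided by the root of its F statistic, and 95% intervals reach 1.96 SE to either side. On simulated counts, drawn with the same dispersion for every gene, 200 of 200 changed genes were recovered in each tissue, with 7 false calls in each. That check covers the fitting steps only. It cannot vouch for the calls in these data, where the spread differs between genes. Levels are CPM with TMM factors over all libraries. Likeness uses log2 CPM (prior count 2) of genes with a mean of at least 1 CPM. DESeq2 1.42.0, limma-voom 3.58.1, RLE factors, other filters, a replicate block and leaving out each library were the alternatives. Nothing says how libraries were batched. Within a tissue, p-values measure the spread between mice. The fit over both regions took all libraries as independent, although libraries of the same number may share a mouse.

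Named genes are Ptprc, Itgam, Cx3cr1 and Csf1r, up to 4 of the most abundant filtered members of each list with any called member of opposite sign, called receptor-type phosphatases, the 8 most alike genes and the nearest coding neighbours. Trbc1, Klrb1c, Cd22, S100a9, Mrc1, Cd209a, Fgr, Lyn, Jak3, Lgals9, Ptbp1, Irf8, Spi1, Ptprq, Ptprf, Ptprz1, Ptpn6, Ptpn18, Etv1, Grp, Ppp1r1b, Cd3d, Cd3e, Cd3g and Ms4a1 were named after their values were seen where the rule does not name them. Some genes that the rule names are not reported here.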

Additional observations from a re-analysis of the deposited data

Results flagged for a closer look

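Of 32 sets of values examined (4 genes in 8 groups), 6 held a library that stood far from the rest of its group; chance alone flags about 1 in 20. A single library, naive APP/Tau hippocampus 5, gave 4 of them: Ptprc at 18.6 CPM (next highest 7.28 CPM), Itgam at 65.4 CPM (next 31.7 CPM), Cx3cr1 at 162.1 CPM (next 73.6 CPM) and Csf1r at 230.9 CPM (next 116.7 CPM). Its summed microglia identity genes, at 2571 CPM, were also the highest of the 20 hippocampal libraries, and without it the averaged Ptprc difference in the hippocampus was 1.66. Itgam in naive control BLA 1 was low, at 11.6 CPM against 17.1 CPM for the next; that library had the highest Rn18s-rs5 of the BLA (9216 CPM) and the highest Ptprc (35.7 CPM). Csf1r in trained control hippocampus 5 was high, at 81.4 CPM against 71.4 CPM.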

How the results depend on the processing

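The Ptprc difference kept its sign under every setting run. When 1 library was left out, it ran from −1.25 (without trained APP/Tau 2) to −0.93 (without trained APP/Tau 4) in the BLA. In the hippocampus it then ran from 1.66 (without naive APP/Tau 5) to 2.09 (without trained APP/Tau 2). With the striatal marker score as a covariate, the BLA difference was smaller in size than any of that range, as given above. The training comparisons of Ptprc passed the threshold under no setting. Counts depended on the tool and on single libraries. In the BLA, 273 genes were called; DESeq2 called 1191, limma-voom 64, the fit with the title's sample number as a replicate block 44 and the striatal covariate, added after seeing the data, 22. Of the 57 microglia and leukocyte genes, 24 were called in the BLA; DESeq2 called 38 of them, limma-voom 5, the fit with the block 5 and that with the covariate 0. Leaving out 1 library gave 45 to 2176 genes and 4 to 42 of the 57, with the lowest of both without trained APP/Tau 1 and the highest without trained APP/Tau 2. The 57 moved by over 1.5 times without naive APP/Tau 2 or 5, trained APP/Tau 1, 2 or 3, naive control 2, 4 or 5, or trained control 1, 3, 4 or 5. In the hippocampus 2854 genes were called, 1168 to 4465 when 1 library was left out (the same libraries) and 1803 without the 2 libraries rich in Rn18s-rs5. For the difference between regions, 0 of the 57 were called by edgeR, 1 by DESeq2 and 4 with the library number as a block. The cause of these changes was not tested. The r of Ptprc with the mean of Itgam, Cx3cr1 and Csf1r was −0.35 in the BLA and −0.63 with group differences kept; in the hippocampus it was 0.91, and 0.68 as Spearman's rho. Libraries that share a title number did not deviate together (mean r −0.04 in the BLA and 0.07 in the hippocampus), so those numbers were not taken as pairs. Libraries that share a number between regions had a mean r of 0.30, from 0.03 to 0.57. BLA libraries were shallower than hippocampal ones; the part of depth in the number of calls was not tested.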

Other observations

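Some genes named for leukocytes varied with Ptprc in the BLA. They were picked after their values were seen, and most pan-leukocyte genes went the other way. In the BLA 6 of 29 pan-leukocyte, 7 of 12 ITAM and 2 of 4 T cell genes had r above 0. Among 15834 genes measured in both regions, 853 had r of at least 0.7 in the BLA. Coro1a (r = 0.77), the adaptors Blnk (0.78) and Lcp2 (0.73), and Cd6 (0.72) were positively correlated with Ptprc across the 19 BLA libraries, after removal of group means. Without the 3 libraries rich in striatal markers (16 left), r was 0.61 for Coro1a, 0.55 for Blnk, 0.32 for Lcp2 and 0.39 for Cd6, so the last 2 rested largely on those libraries. In the hippocampus r was −0.19 for Coro1a, 0.82 for Blnk and 0.90 for Lcp2. Blnk was at −0.41 ± 0.24 in the BLA (adjusted p = 0.374, edgeR), which did not pass, and 0.77 ± 0.17 in the hippocampus (adjusted p = 0.00711). Its level was 15.3 ± 5.38 CPM in control (SD, n = 10) and 11.5 ± 3.78 CPM in APP/Tau BLA (SD, n = 9), and 4.67 ± 1.00 CPM in control (SD, n = 11) and 7.83 ± 3.41 CPM in APP/Tau hippocampus (SD, n = 9). Cd6, a surface receptor of T cells, was at 5.17 ± 2.14 CPM in control BLA (SD, n = 10) and at 0.622 ± 0.252 CPM in control hippocampus (SD, n = 11).

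Cd22, a CD45 partner, varied between libraries. It ran from 0 to 5.82 CPM in APP/Tau and from 0.032 to 0.311 CPM in control BLA, and from 0.275 to 11.5 CPM in APP/Tau and from 0.0792 to 0.511 CPM in control hippocampus.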
